A study of Mus musculus with 8 samples.

Results

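The vascular endothelial growth factor (VEGF) family was followed across the cell classes of mouse long bone periosteum, the fibrous sheath of bone, in mice on a normal diet (ND) or a high-fat diet (HFD). Its members were chosen by gene symbol and not by their measured values. They were the ligand genes Vegfa, Vegfb, Vegfc, Vegfd and Pgf, the receptor genes Flt1, Kdr and Flt4, and the co-receptor genes Nrp1 and Nrp2, which made 10 of the 32285 genes counted. All animals were C57BL/6J male mice of 16 weeks, with no transgene or deletion, and the sole stated difference between the groups was normal diet chow against high fat diet chow. Left femurs and tibias were digested with collagenase I and dispase II, and the released cells were sequenced as single cells on the 10X Genomics Chromium system. The labels list 4 samples for each diet, but the files hold 1 pooled library per diet with no map from cells to mice. Cells of 1 library are not replicates, so the comparison of diets is one between 2 libraries, with no test and no replicate check.

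VEGF proteins are secreted dimers that steer the growth, survival and permeability of vessels. VEGF-A, VEGF-B and placental growth factor (Pgf) bind VEGFR1, the product of Flt1, and VEGF-A also signals through VEGFR2, the product of Kdr and the main driver of endothelial growth. VEGF-C and VEGF-D act through VEGFR3, the product of Flt4, on lymphatic vessels. Neuropilins 1 and 2 bind both VEGFs and class 3 semaphorins. In bone, VEGF-A is known for coupling the growth of vessels to bone formation and repair.

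The ND library held 6314 barcodes with 48558889 unique molecular identifiers (UMIs, each counting 1 captured RNA molecule), and the HFD library held 6636 barcodes with 49940976 UMIs. After the filter on detected genes and mitochondrial UMIs, 6029 ND and 6224 HFD cells remained, with medians of 4610 and 4823.5 UMIs per cell. Both libraries shared 14 barcodes among the kept cells. Clustering without the 10 members gave 13 classes named from marker genes, each written here with the ending "-like", and 3 unnamed clusters. One of these, 77 ND and 118 HFD cells led by MHC class II genes, had 10 of 11 macrophage/monocyte markers and is counted outside the macrophage/monocyte-like cells. The others were 213 and 164 shallow cells of mixed markers, with a median of 1451 UMIs, and 36 and 19 cells that were all among the top doublet scores. Blood cells made up most of both libraries, with neutrophil-like cells at 39.8% of ND and 39.0% of HFD cells. Mesenchymal-like cells numbered 409 and 670 (6.78% and 10.8%), endothelial-like cells 116 and 227 (1.92% and 3.65%), and pericyte or smooth muscle-like cells 31 and 59 (0.514% and 0.948%). The periosteal markers Postn, Ctsk, Gli1 and Aspn were all found in mesenchymal-like cells, summing to 2494 and 3155 UPM (UMIs of a gene per 1000000 UMIs of the class). Genes of other cells were counted in these classes as well. The 10 neutrophil markers summed to 17395 and 15270 UPM in endothelial-like cells and to 19276 and 9129 UPM in mesenchymal-like cells.

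All 10 genes are protein coding. On GRCm38 (mm10) the ligand genes lie at chr17:46016993-46032369 on the minus strand (Vegfa), chr19:6982473-6987651 on the minus strand (Vegfb), chr8:54077606-54187096 on the plus strand (Vegfc), chrX:164373378-164402650 on the plus strand (Vegfd) and chr12:85166635-85177790 on the minus strand (Pgf). Flt1 (chr5:147561604-147726011) and Kdr (chr5:75932827-75978458) are both on the minus strand of chromosome 5, while Flt4 (chr11:49609263-49652739), Nrp1 (chr8:128358604-128503363) and Nrp2 (chr1:62703285-62818695) are on plus strands. Exons of Nrp1 overlap the microRNA gene Mir1903 on the same strand, and no other member shares exon sequence with a neighbour. The promoters of Flt1 and Kdr are shown as examples from the receptors whose UMIs lay mainly in endothelial-like cells, which also include Flt4. They come from RefSeq's GRCm38.p6 table, in which all 10 members had an entry, and end at the base before the start of transcription for Flt1 and at the fourth base before it for Kdr. They are written 5′ to 3′ on the gene's strand, at chr5:147726012-147726261 for Flt1 and chr5:75978459-75978705 for Kdr, and capitals mark GGAA or its reverse complement TTCC, the core letters bound by ETS factors.
Flt1: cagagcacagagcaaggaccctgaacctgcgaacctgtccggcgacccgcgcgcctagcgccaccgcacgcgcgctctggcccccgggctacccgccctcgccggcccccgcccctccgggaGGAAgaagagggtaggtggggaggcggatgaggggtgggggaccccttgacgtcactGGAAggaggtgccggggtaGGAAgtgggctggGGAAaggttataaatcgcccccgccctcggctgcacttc
Kdr: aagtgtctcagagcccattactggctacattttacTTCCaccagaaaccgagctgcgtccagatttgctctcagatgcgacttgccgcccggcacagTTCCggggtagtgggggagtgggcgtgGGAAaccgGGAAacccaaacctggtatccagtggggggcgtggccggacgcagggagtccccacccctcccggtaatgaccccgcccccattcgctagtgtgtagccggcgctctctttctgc
Each window held 4 matches, and that of Flt4, which is not printed, held 2. The letters are common, since 93.4% of the 32851 promoter windows of 250 bases had at least 1 match on either strand and 33.4% had 4 or more. The matches are a description of these letters and say nothing about a factor.

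RNAs of the receptor genes Flt1, Kdr and Flt4 lay mainly in endothelial-like cells, while the ligand genes differed in the class with their highest level. Of the 10 members, 6 had their highest level in endothelial-like cells (Vegfc, Flt1, Kdr, Flt4, Nrp1 and Nrp2), as had 13.9% of the 15893 genes with enough UMIs. Vegfb and Pgf were highest in pericyte or smooth muscle-like cells (10.9% of genes), Vegfd in mesenchymal-like cells (15.2%) and Vegfa in NK-like cells (5.12%). Levels are given with exact 95% Poisson intervals, which cover counting error only. UMIs were not divided by transcript length and do not separate splice forms such as soluble VEGFR1, so levels are compared between cells and not between genes.

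**Figure D1:**
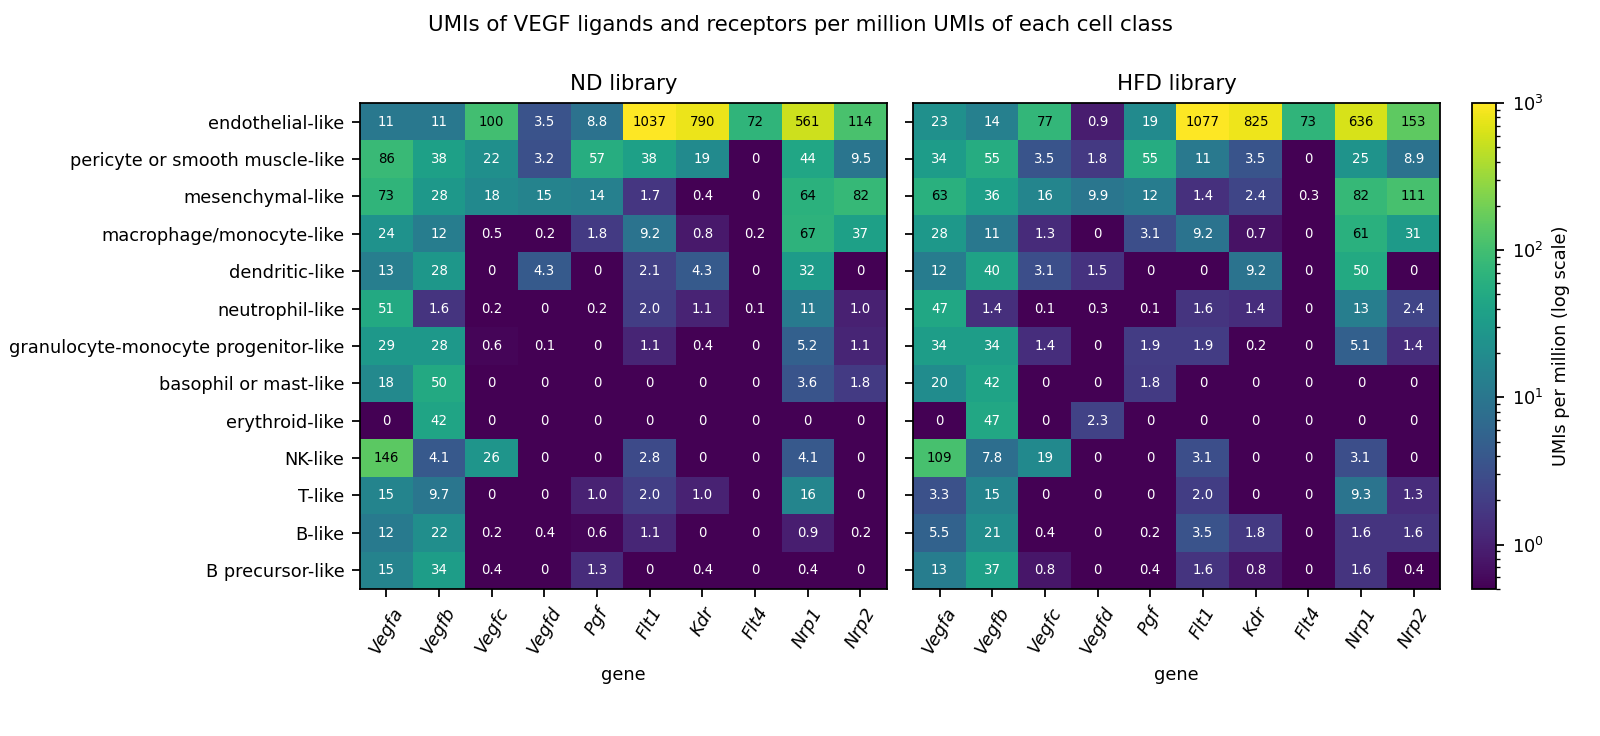
Heat map of the level of each member (columns, UPM, printed in each cell and coloured on a log scale) in the 13 named cell classes (rows), with the ND library on the left and the HFD library on the right. Flt1 and Kdr are brightest in endothelial-like cells, at 1037 and 790 UPM in ND, whereas Vegfa and Vegfb spread over many classes.

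Vegfa, which encodes the VEGF used most widely for vessel growth, had 1855 UMIs in the ND and 1822 in the HFD library. NK-like cells carried 146 UPM in ND (95% interval 120 to 177) and 109 in HFD (85.2 to 138). Over both libraries NK-like cells stood at 129 UPM (110 to 149), beyond the next class, mesenchymal-like cells, at 67.1 UPM (62.5 to 71.9). Pericyte or smooth muscle-like cells (52.3 UPM) and neutrophil-like cells (48.6 UPM) followed, and the intervals of these 3 neighbours overlapped in turn. Neutrophil-like cells, the most numerous class, held 43.6% of all Vegfa UMIs, against 21.5% in mesenchymal-like and 4.79% in NK-like cells. Erythroid-like cells had no Vegfa UMI in either library, which allowed up to 5.31 UPM in ND and 6.78 UPM in HFD. Of the other blood cells, granulocyte-monocyte progenitor-like cells had 28.9 UPM in ND and 34 in HFD, and macrophage/monocyte-like cells 24.3 and 28.4.

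Within the neutrophil-like cells the level of Vegfa differed between clusters by more than counting error. It was lowest in the clusters led by the secondary granule genes Ltf, Ngp and Camp, which mark neutrophils still maturing in marrow: 14.3 UPM in ND and 24.8 in HFD in one, 22.1 and 20.2 in the next, and 27.6 and 28.6 in another. In the largest cluster, led by Retnlg and Cstdc4, it was 56.8 UPM (49.5 to 64.9) in ND and 67.2 (59.5 to 75.6) in HFD. In the cluster led by Acod1, Il1r2 and Il1b, genes of activated neutrophils, it reached 118 UPM (103 to 134) and 136 (120 to 155). Another cluster, led by Retnlg and G0s2, stood at 173 and 140 UPM but had only 18 HFD cells against 166 ND cells. Between the 2 larger granule-gene clusters and the Acod1 cluster Nrp1 ran the other way, at 17.7 to 25 UPM in the former and at 1.02 and 2.84 UPM in the latter.

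**Figure D2:**
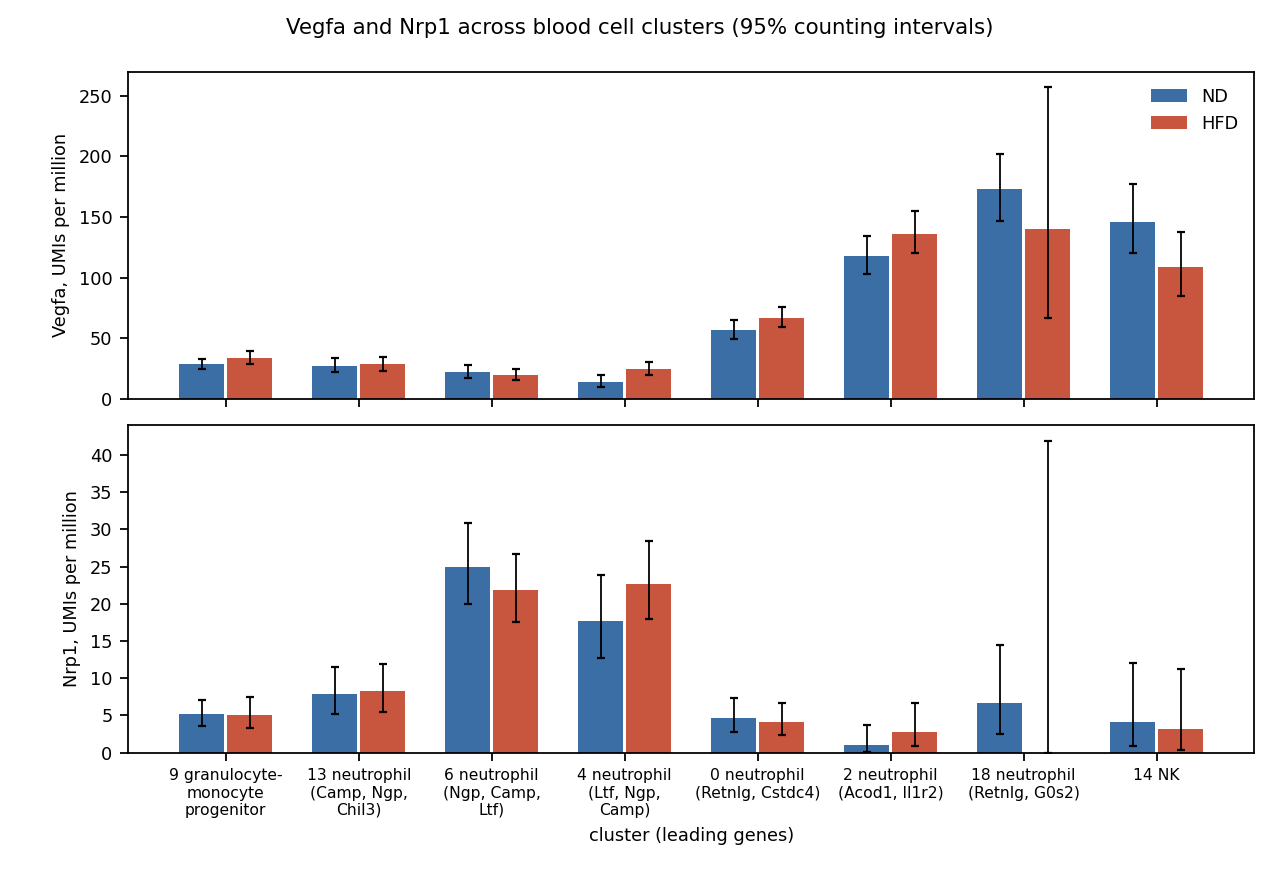
Vegfa (top) and Nrp1 (bottom) levels in UPM in the progenitor-like, neutrophil-like and NK-like clusters, labelled with their leading genes, for ND (blue) and HFD (red), with exact 95% counting intervals. Among neutrophil-like clusters Vegfa is highest in those led by Acod1 or by Retnlg with G0s2, and Nrp1 is highest in those led by Ngp, Camp and Ltf.

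Vegfb, whose product binds VEGFR1 and is known from muscle and fat, had 751 and 871 UMIs. Its levels were close to each other over many classes, from 48.9 UPM in pericyte or smooth muscle-like cells over 46.0 in basophil or mast-like and 44.6 in erythroid-like to 33.0 in mesenchymal-like and 30.9 UPM in granulocyte-monocyte progenitor-like cells, and neighbours in this order overlapped. Neutrophil-like cells were far below, at 1.56 UPM in ND (1.01 to 2.31) and 1.41 in HFD (0.902 to 2.09). Endothelial-like cells had 10.6 and 13.7 UPM.

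Vegfc, the lymphatic growth factor, had 186 and 237 UMIs. Endothelial-like cells led with 100 UPM in ND (76.0 to 130) and 76.7 in HFD (61.2 to 95), and held 33.3% of its UMIs. NK-like cells followed with 26.2 and 18.7 UPM, and mesenchymal-like cells with 18.4 and 15.9 UPM, and these 2 overlapped. Mesenchymal-like cells held 47.0% of the Vegfc UMIs. Vegfd, the other VEGFR3 ligand, was sparse, with 81 and 78 UMIs. Of these, 88.7% were in mesenchymal-like cells, at 15.1 UPM in ND (11.8 to 19.0) and 9.86 in HFD (7.67 to 12.5). Its level in endothelial-like cells was 3.52 and 0.913 UPM, from 2 and 1 UMIs.

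Pgf, placental growth factor, had 114 and 171 UMIs and marked mural cells. Pericyte or smooth muscle-like cells had 57.0 UPM in ND (33.8 to 90.1) and 55.0 in HFD (37.4 to 78.1). Mesenchymal-like cells had 13.6 and 12.1 UPM and held 52.6% of the UMIs. Endothelial-like cells had 8.80 and 19.2 UPM, but 11 of their 21 HFD UMIs came from 1 cell.

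Flt1, which encodes VEGFR1, had 731 and 1332 UMIs, of which 85.7% lay in endothelial-like cells. Its level there was 1037 UPM in ND (955 to 1124) and 1077 in HFD (1016 to 1140), and the 2 intervals overlapped. At least 1 Flt1 UMI was found in 88.8% of ND and 89.4% of HFD endothelial-like cells. In B-like cells, taken as the background, the shares were 0.371% and 0.696%. Median depths were 4335 and 4036 UMIs per endothelial-like cell and 3787 and 3668 per B-like cell. Nearly every endothelial-like cell thus had signal and few B-like cells did. With each cell thinned to 1000 UMIs the endothelial shares were 52.7% and 65.3%. Pericyte or smooth muscle-like cells had 38.0 and 10.7 UPM, where 11 of the 12 ND UMIs came from 1 cell. Macrophage/monocyte-like cells, in which VEGFR1 is known to guide migration, had 9.16 UPM in ND (6.90 to 11.9) and 9.17 in HFD (6.80 to 12.1), above the 1.12 and 3.53 UPM of B-like cells.

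Kdr, which encodes VEGFR2, was the more restricted of the pair, with 490 and 977 UMIs and 92.2% of them in endothelial-like cells. The level there was 790 UPM in ND (719 to 867) and 825 in HFD (772 to 880), in 79.3% and 81.1% of the cells. B-like cells had no Kdr UMI in ND, which allowed up to 0.56 UPM, and 9 UMIs in HFD (1.77 UPM). Mesenchymal-like cells had 2 UMIs in ND and 17 in HFD (0.418 and 2.43 UPM). Both values are a small part of the endothelial level. Macrophage/monocyte-like cells, where Flt1 was found, stood at 0.833 and 0.733 UPM of Kdr. Flt4, which encodes VEGFR3, had 43 and 85 UMIs, and 94.5% were in endothelial-like cells at 72.2 UPM (51.8 to 97.9) and 73.1 UPM (57.9 to 90.9).

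The co-receptors were shared between vessels, stroma and phagocytes. Nrp1 had 1366 and 1965 UMIs, of which 30.5% were in endothelial-like, 26.4% in mesenchymal-like and 22.2% in macrophage/monocyte-like cells. Endothelial-like cells had 561 UPM in ND (502 to 627) and 636 in HFD (590 to 686). Mesenchymal-like cells had 64.4 (57.4 to 72.0) and 81.9 UPM (75.3 to 88.8), and macrophage/monocyte-like cells 67.3 and 61.4 UPM. The dendritic-like cluster, led by the plasmacytoid dendritic cell genes Siglech, Bst2 and Ccr9, had 32.0 and 50.4 UPM. Each of these classes had Nrp1 in both libraries, so the gene was not restricted to vessels. Nrp2 had 747 and 1238 UMIs, and here mesenchymal-like cells held the larger part, 58.9%, at 82.4 UPM in ND (74.5 to 91.0) and 111 in HFD (103 to 119). Its level was highest in endothelial-like cells, at 114 (88.3 to 146) and 153 UPM (130 to 177). In macrophage/monocyte-like cells it was 37.3 and 31.2 UPM.

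Among macrophage/monocyte-like cells both neuropilin genes marked the cluster led by C1qa, C1qc and Pf4, genes of resident macrophages. Nrp1 was 160 UPM (138 to 184) in ND and 120 (99.2 to 143) in HFD there, against 43.9 and 49.3 UPM in the cluster led by the monocyte genes F13a1 and Ccr2. Nrp2 was 126 and 102 UPM against 16.6 and 15.7 UPM. The ligand genes split as well: Vegfb was 44.4 and 34.9 UPM in the C1q cluster against 4.50 and 5.32 UPM in the monocyte cluster, while Vegfa was 9.69 and 2.99 UPM against 28.4 and 36.5 UPM. The unnamed cluster led by MHC class II genes had 39.7 and 22.6 UPM of Nrp1 and 26 and 36.8 UPM of Nrp2. Over all macrophage/monocyte-like cells, Vegfb and Nrp2 were found in the same cell 25 times in each library, where 8.5 and 10.9 cells would be met if the genes were unrelated. These expected counts take all cells of the class as alike. Both genes were higher in the C1q cluster, so the excess does not show a relation between them within a cluster.

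Mesenchymal-like cells split into 5 named subclusters, whose levels of the members differed, and 3 unnamed ones. Of the unnamed, 1 was led by neutrophil genes such as S100a9, and 57.8% of its cells were among the top doublet scores. Another, of 6 ND and 15 HFD cells, had 61.9% of its cells among them. It was kept where the subcluster led by neutrophil genes was left out. In the subcluster with the fibroblast genes Ccl11 and Col15a1, Vegfa was 101 UPM in ND (82.4 to 122) and 87.8 in HFD, and Nrp1 reached 132 and 172 UPM. In the fibroblast progenitor-like subcluster, with Pi16 and Dpp4, Vegfa was 85.3 and 94.2 UPM, and Vegfd 34.1 and 31.7 UPM. Tenocyte-like cells had no Vegfd UMI in either library. They had 37.9 and 36.8 UPM of Vegfc and 46.6 and 66.3 UPM of Vegfb. Osteoblast-like cells had 3.70 and 1.81 UPM of Vegfc and 46.2 and 37.2 UPM of Vegfa. The 2 neuropilin genes took opposite places. Nrp2 was 176 and 312 UPM in osteoblast-like and 140 and 183 UPM in tenocyte-like cells, whereas Nrp1 was 20.3 and 27.2 and 41.7 and 53.0 UPM in them. In Ccl11 fibroblast-like cells Nrp2 was 51.8 and 39.8 UPM. Chondrocyte-like cells, 15 in ND and 51 in HFD, had 70.9 and 67.5 UPM of Nrp2.

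**Figure D3:**
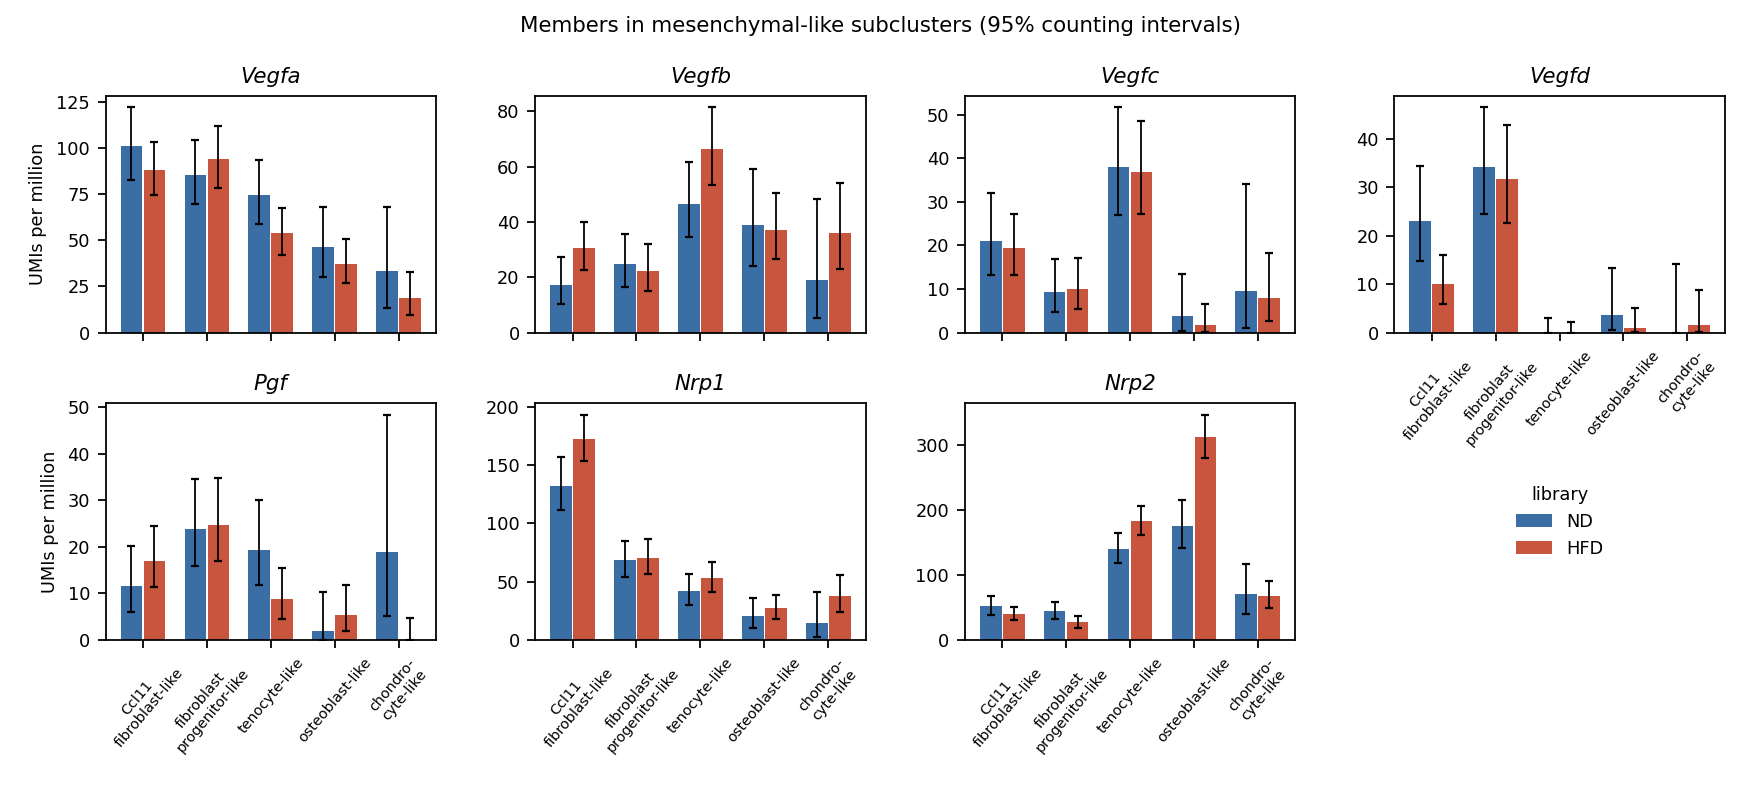
Levels (UPM) of 7 members in the named subclusters of mesenchymal-like cells, ND (blue) and HFD (red), with exact 95% counting intervals. Nrp1 is highest in Ccl11 fibroblast-like cells and Nrp2 in osteoblast-like cells, and Vegfd is found in the fibroblast subclusters and at 0 in tenocyte-like cells.

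Endothelial-like cells were divided at a finer resolution that was chosen after seeing the data. Arterial-like cells, 20 in ND and 26 in HFD, had Vegfc at 347 UPM (248 to 472) and 245 UPM (178 to 329). The remaining endothelial-like cells, outside the arterial-like subcluster and the one named from lymphatic markers, had 36.4 and 49.1 UPM. They included a subcluster of 6 ND and 8 HFD cells led by neutrophil genes, with 57.1% of its cells among the top doublet scores. Also among them was a subcluster led by Ifit3b, Ifit3 and Ifit2, of 1 ND and 30 HFD cells, so their mix differed between the libraries. Flt1 in arterial-like cells was 1213 and 868 UPM against 1142 and 1259 UPM in those other cells. Kdr was 260 (175 to 371) and 178 (122 to 251) UPM against 1096 and 1064 UPM, so the receptors did not run in parallel. No Nrp2 UMI was found in arterial-like cells of either library, which allowed up to 26.0 and 16.7 UPM, against 125 and 166 UPM in the other cells. Cells with at least 2 of the lymphatic markers Prox1, Lyve1, Ccl21a, Mmrn1 and Reln were few, 6 in ND and 7 in HFD. They had Flt4 at 404 UPM (209 to 706) and 705 UPM (503 to 960), from 12 and 40 UMIs, and Nrp2 at 269 and 388 UPM. In the other cells Flt4 was 69.9 and 43.3 UPM. The lymphatic-marker cells also had Kdr, at 269 and 669 UPM, and no UMI of Flt1 or Nrp1, which allowed up to 101 UPM in ND and 52.9 in HFD. In single endothelial-like cells Vegfc and Kdr were found together 15 times in each library, where 19.0 and 25.1 cells would be met if they were unrelated, and Vegfc and Nrp2 4 times in each library, beside 8.07 and 11.6.

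**Figure D4:**
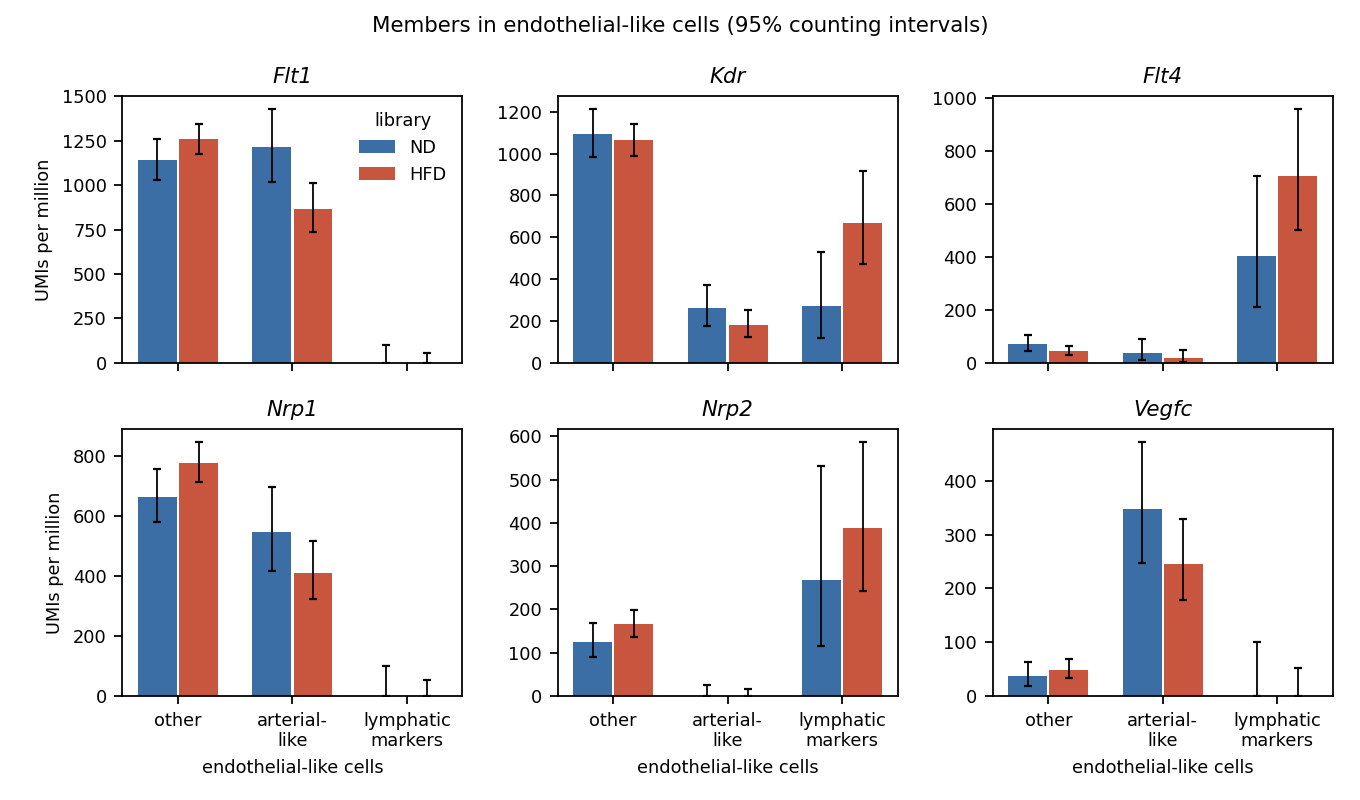
Levels (UPM) of 6 members in arterial-like cells, in cells with lymphatic markers and in the other endothelial-like cells, for ND (blue) and HFD (red), with exact 95% counting intervals. Vegfc is highest in arterial-like cells, where Kdr is low and Nrp2 at 0, and Flt4 is highest in the lymphatic-marker cells, where Flt1 and Nrp1 are at 0.

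The comparison of diets asks how a diet that models type 2 diabetes changes the periosteum. Over all kept cells, none of the 10 members differed by 2-fold, beside 3.89% of 15994 genes at least 2-fold higher and 1.31% at least 2-fold lower in HFD. With the 95% counting interval of the ratio as the measure, 8 of 10 members were higher in HFD, beside 25.8% of genes, and 0 were lower, beside 15.9%. Kdr was highest at a log2 ratio of 0.96, followed by Flt4 (0.94), Flt1 (0.83), Nrp2 (0.69), Pgf (0.54) and Nrp1 (0.49), and the members' median was 0.52 against 0.031 for all genes. Endothelial-like and mesenchymal-like cells also made up larger shares of the HFD library. With each class given the same weight in both libraries, Kdr was at 0.10, Flt4 at 0.070, Flt1 at 0.053, Nrp1 at 0.12 and Nrp2 at 0.32. Pgf was then at 0.099, and Vegfc at -0.23 where it had been at 0.31.

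Over all endothelial-like cells the intervals of the receptors' ratios included 0. The log2 ratio was 0.054 for Flt1 (95% interval -0.089 to 0.20), 0.061 for Kdr (-0.10 to 0.23), 0.0092 for Flt4 (-0.54 to 0.60), 0.18 for Nrp1 (-0.012 to 0.38) and 0.41 for Nrp2 (-0.0069 to 0.85). Vegfc was at -0.39 (-0.89 to 0.12), with an interval that also included 0. Of the 9 members with at least 20 UMIs, Vegfa (1.03) and Pgf (1.02) were past 2-fold higher, beside 3.22% of 7695 genes higher and 2.91% lower. Both intervals included 0, and 15 of the 25 HFD UMIs of Vegfa came from 1 cell. In the HFD library 11 of the 21 Pgf UMIs came from 1 cell too. The 7 pericyte or smooth muscle markers summed to 47.5 UPM in ND, with 4 of them found, and to 363 UPM in HFD, with all 7 found, in endothelial-like cells, and their part in the Vegfa and Pgf ratios was not tested. No member differed beyond counting error over all endothelial-like cells, beside 5.87% of genes higher and 5.03% lower. In single subclusters some members did differ beyond counting error. The share of all genes doing so was not counted by subcluster, so these values have no general rate beside them. Kdr was at -0.56 (-0.81 to -0.30) in the unnamed subcluster led by Rgs5, of 38 ND and 121 HFD cells. In the subcluster named from lymphatic markers, of 47 ND and 63 HFD cells, Flt1 was at -0.25 (-0.48 to -0.019). Vegfa was at 2.07 there (0.54 to 4.64, from 3 and 23 UMIs), with 15 of the 23 HFD UMIs in 1 cell. Most cells of this subcluster are not lymphatic by their markers. Of 116 ND and 227 HFD endothelial-like cells, 107 and 218 had no UMI of Prox1, Lyve1, Ccl21a, Mmrn1 or Reln. Nrp1 was at 0.53 (0.16 to 0.90) in the remaining unnamed subcluster. At the finer resolution Flt4 was at -1.60 (-2.97 to -0.20, from 10 and 11 UMIs) in the subcluster led by Rgs5. It was at 0.86 (0.012 to 1.87) in the one named from lymphatic markers, of 20 ND and 29 HFD cells, most of which also lacked these markers. Flt1 was at -0.48 (-0.82 to -0.14) in arterial-like cells and at 0.38 (0.073 to 0.69) in an unnamed subcluster of 28 and 36 cells. Nrp1 was at 0.58 (0.20 to 0.97) in that unnamed subcluster, and Kdr at -0.49 (-0.79 to -0.17) in the one led by Rgs5. In the cells with at least 2 lymphatic markers Kdr was at 1.24 (0.19 to 2.62), from 8 and 38 UMIs. The difference between endothelial-like subclusters was not tested. Their mix differed between the libraries, and 1 finer subcluster, led by Ifit3b, held 1 ND and 30 HFD cells. With the subclusters of resolution 0.5 given the same weights, Flt1 was at -0.060, Kdr at -0.17, Flt4 at -0.094, Nrp1 at 0.073 and Nrp2 at 0.26. With cells thinned to 1000 UMIs the ratios over endothelial-like cells were 0.43 for Flt1, -0.10 for Kdr, -1.20 for Flt4 and 0.59 for Nrp1. The 19 dissociation and immediate-early genes, which respond to tissue digestion, summed to 40343 UPM in ND and 23948 in HFD in these cells, and their part in these results was not tested.

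In mesenchymal-like cells 0 of the 7 members with enough UMIs passed 2-fold, beside 2.58% of 12633 genes higher and 2.05% lower. Beyond counting error 3 were higher (12.3% of genes) and 2 lower (8.72%). Nrp2 was higher by 0.43 (0.25 to 0.61), Nrp1 by 0.34 (0.14 to 0.55) and Vegfb by 0.34 (0.039 to 0.66). Vegfd was lower, at -0.61 (-1.11 to -0.11), as was Vegfa, at -0.21 (-0.42 to -0.0058). The Vegfa interval nearly reached 0, and 19 of its 349 ND UMIs came from 1 cell. Of the 776 HFD UMIs of Nrp2, 29 came from 1 cell and 21 from another. At least 1 Nrp2 UMI was found in 40.3% of ND and 40.4% of HFD mesenchymal-like cells. The shares were 36.7% and 38.1% for Nrp1, and 24.7% and 27.0% for Vegfb. Median depths were 10640 and 9541.5 UMIs per cell. With subclusters given the same weights Vegfa was at -0.16, Vegfd at -0.42, Nrp2 at 0.31, Nrp1 at 0.37 and Vegfb at 0.31. The members' median was -0.17 against 0.051 for all genes. By subcluster Nrp2 was at 0.82 (0.50 to 1.17) in osteoblast-like cells, from 95 ND and 344 HFD UMIs, at 0.38 (0.084 to 0.69) in tenocyte-like cells and at -0.71 (-1.38 to -0.070) in fibroblast progenitor-like cells. The difference between subclusters was not tested, and the share of all genes beyond counting error was not counted by subcluster. Vegfd was at -1.20 (-2.20 to -0.25) in Ccl11 fibroblast-like cells, from 24 and 17 UMIs, and at -0.11 (-0.77 to 0.56) in fibroblast progenitor-like cells, from 40 and 41 UMIs. Pgf was at -1.11 (-2.30 to -0.032) in tenocyte-like cells, from 20 and 12 UMIs. In Ccl11 fibroblast-like cells Vegfb was at 0.79 (0.020 to 1.68) and Nrp1 at 0.38 (0.082 to 0.68). Without the subcluster led by neutrophil genes the ratios over mesenchymal-like cells were 0.39 for Nrp2, 0.32 for Nrp1, 0.34 for Vegfb, -0.63 for Vegfd and -0.28 for Vegfa. The dissociation and immediate-early genes were at 27832 and 21367 UPM in mesenchymal-like cells, and their part was not tested.

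**Figure D5:**
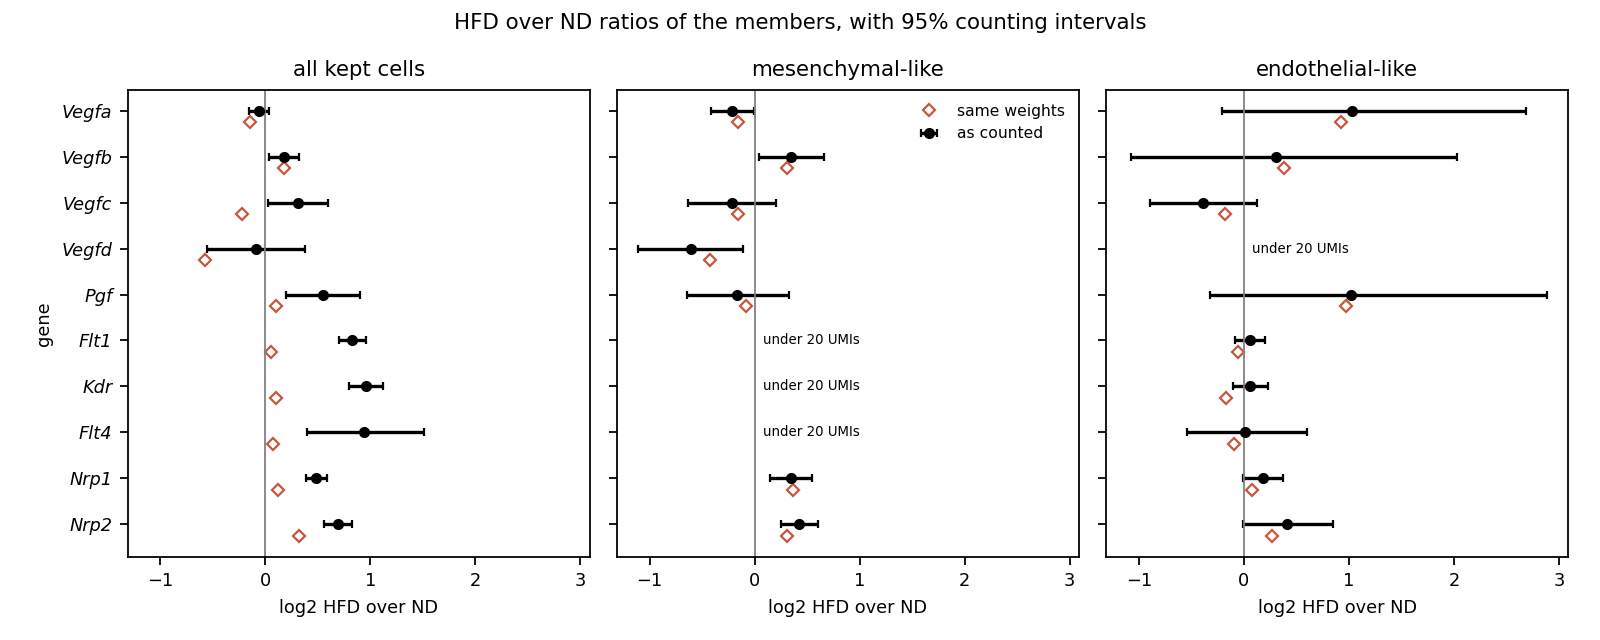
Log2 ratio of HFD over ND for each member in all kept, mesenchymal-like and endothelial-like cells (circles, with 95% counting intervals), beside the ratio with classes or subclusters given the same weights (diamonds). The receptor genes lie well above 0 over all cells and their intervals include 0 over all endothelial-like cells.

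Vegfa was lower in the HFD library in T-like, B-like and pericyte or smooth muscle-like cells. In T-like cells it had 30 UMIs in ND and 5 in HFD, 15.4 and 3.32 UPM, a log2 ratio of -2.10 (-3.93 to -0.83), beside 2.58% of genes at least 2-fold lower. All 5 HFD UMIs came from 1 cell. The larger of the 2 T-like clusters held 172 ND and 160 HFD cells, and the smaller 109 and 42. In one of these 2 clusters Vegfa had 26 UMIs in ND and 0 in HFD, and in the other 4 and 5. In B-like cells it was 11.6 and 5.50 UPM, at -1.06 (-1.77 to -0.41), beside 1.76% of genes. In pericyte or smooth muscle-like cells it was 85.5 UPM (56.4 to 124) and 33.7 UPM (20.3 to 52.7), at -1.33 (-2.27 to -0.44), beside 4.45% of genes. In NK-like cells, at -0.42 (-0.88 to 0.030), and over all neutrophil-like cells, at -0.12 (-0.27 to 0.019), the interval included 0. Within each of the 3 largest neutrophil-like clusters the level was instead higher in HFD, with overlapping intervals, while the cluster led by Retnlg and G0s2, with the highest ND level of these clusters, had 166 ND and 18 HFD cells. The dissociation and immediate-early genes were also lower in HFD in these classes, at 17236 and 10562 UPM in T-like and 22243 and 14085 in B-like cells, which was not tested as a cause. Some sparse receptor signals went the other way and rested largely on single cells. Flt1 in B-like cells was at 1.58 with 9 of its 18 HFD UMIs in 1 cell, beside 1.35% of genes at least 2-fold higher, and Nrp2 in neutrophil-like cells at 1.24 with 21 of its 41 HFD UMIs in 1 cell, beside 1.78%.

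Other genes of the pathway were counted by list. Of the 42 genes of VEGF receptor signaling, 40 were measured in mesenchymal-like cells, with none past 2-fold, 4 higher and 8 lower beyond counting error, beside 12.3% of all genes higher and 8.72% lower. In endothelial-like cells 34 were measured, 1 higher and 5 lower, beside 5.87% and 5.03%. The counts of the tip-cell and hypoxia lists are read beside these same shares. Mapk14, the p38 kinase, was past 2-fold in endothelial-like cells at 1.17 (0.040 to 2.67), from 7 and 32 UMIs. In mesenchymal-like cells Mapk14 was instead lower, at -0.55 (-0.88 to -0.22). Hspb1, a small heat-shock protein downstream of p38, was at -1.17 in endothelial-like cells (6417 and 2856 UPM). It was lower in mesenchymal-like cells too, at -0.95 (-1.02 to -0.87). The dissociation and immediate-early genes, which include heat-shock genes, had medians of -0.71 in endothelial-like and -0.38 in mesenchymal-like cells. Their part in the Hspb1 ratios was not tested. Of the 16 tip-cell and VEGF-response genes, all measured in endothelial-like cells, 3 were higher and 4 lower. Esm1, a tip-cell proteoglycan, had 1 UMI in ND and 23 in HFD, and the vessel-destabilizing ligand Angpt2 had 8 and 45 UMIs (1.47, 0.45 to 2.84). The potassium channel subunit gene Kcne3 was lower, with 17 and 9 UMIs (-1.83). The spread of the Esm1, Angpt2 and Kcne3 UMIs over single cells was not counted. The part of pericyte or smooth muscle RNA in these ratios was not tested. The medians of both lists lay near 0, at 0.017 and -0.066, beside 0.010 for all genes.

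Of the angiopoietin-Tie list, 3 of 5 genes measured in endothelial-like cells were higher in HFD beyond counting error and 0 lower, beside 5.87% and 5.03% of all genes. One of the 3 was Angpt2, which is on the tip-cell list as well, and another was Angptl4. The third was Ptprb, at 0.18 (0.040 to 0.33). The receptor genes Tek (0.16, -0.16 to 0.49) and Tie1 (0.039, -0.23 to 0.31) had intervals that included 0. Ptprb, Tek and Tie1 were named after their values were seen. In mesenchymal-like cells 4 were measured, with 1 higher and 1 lower, beside 12.3% and 8.72%, and a median of -0.35. The higher one was again Angptl4. The lower one, named after its values were seen, was Tek, which encodes the angiopoietin receptor Tie2, with 147 UMIs in each library (-0.55, -0.89 to -0.21). Angptl4, a secreted inhibitor of lipoprotein lipase, had 4 and 42 UMIs in endothelial-like cells (2.29, 0.98 to 4.39). In mesenchymal-like cells it had 218 and 651 UMIs (1.03, 0.80 to 1.26). The spread of Angptl4 UMIs over single cells was not counted. Esm1 in mesenchymal-like cells had 16 and 48 UMIs (1.01). None of the neuropilin partner genes passed 2-fold, with 11 of 12 measured in mesenchymal-like and 6 in endothelial-like cells. Beyond counting error 2 of the 11 were higher and 1 lower in mesenchymal-like cells, beside 12.3% and 8.72% of all genes. In endothelial-like cells 0 were, beside 5.87% and 5.03%. None of the genes for processing VEGF-C and VEGF-D passed 2-fold, with 5 and 3 of 6 measured. Beyond counting error 1 of these was higher in mesenchymal-like cells, beside 12.3% of all genes, and 0 in endothelial-like cells, beside 5.87%. In both classes 0 were lower, beside 8.72% and 5.03%. The 17 hypoxia-response genes in the files had 2 higher and 2 lower in mesenchymal-like cells, and in endothelial-like cells 0 of 14 higher and 2 lower. Among these, Adm, which encodes the vasodilator adrenomedullin, was past 2-fold, at -1.82 from 61 and 33 UMIs. Of the 19 dissociation and immediate-early genes, 19 were lower in mesenchymal-like cells (median -0.38) and 16 in endothelial-like cells (median -0.71), beside 8.72% and 5.03% of all genes. Past 2-fold were 2 in mesenchymal-like cells, the heat-shock genes Hspa1a and Hspa1b, and 4 in endothelial-like cells, among them the same 2 and Egr1, an immediate-early transcription factor.

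The genes whose pattern was most like each member were ranked by Pearson's r of log2(UPM + 10) over the 13 named classes, among 11815 genes with at least 200 UMIs. The points share libraries and depth, and r is a description only. Flt1 was nearest to Podxl (r = 0.991), Cldn5 (0.990) and Gpihbp1 (0.989), and Kdr to Gpihbp1 (0.995), C130074G19Rik (0.993) and Ptprr (0.992). Pgf was nearest to Mical2 (0.992), Gjc1 (0.991) and Mustn1 (0.990), and Nrp2 to Lima1 (0.989), Ace (0.988) and Zfyve9 (0.985). Vegfc was nearest to Efnb1 (0.972), Arhgef5 (0.953) and Arl15 (0.947), and Nrp1 to Slfn5 (0.964), Cttnbp2nl (0.963) and Crybg3 (0.947). Vegfb was nearest to Prepl (0.931), Gstz1 (0.878) and Poldip2 (0.872). Vegfa had the loosest neighbours of the 8 members ranked, Wdfy1 (0.854), Cep131 (0.846) and Fbxo31 (0.837). Vegfd and Flt4 had too few UMIs to be ranked.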

How the data were processed

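Single-cell RNA was measured in 2 libraries of periosteal cells, 1 pooled library per diet. The authors deposited filtered gene-by-barcode matrices of raw UMI counts, made with Cell Ranger 6.0.1 on mm10 per the submitters' processing notes. The study's stated filter, more than 500 and fewer than 8000 detected genes with mitochondrial UMIs below 20%, left out 285 ND and 412 HFD barcodes. Counts were normalized with sctransform 0.4.2 in Seurat 5.3.0 (R 4.3.3), regressing cell-cycle scores, and clustered on 30 principal components at resolution 0.5 with the members left out. Clusters were named from at least 3 detected markers, and left unnamed where more than 50% of their cells were among the top 5% of doublet scores, where more of the 10 leading genes marked another class, or where they were shallow and no leading gene was a marker of their own. Scrublet was run within each library and called 9 ND and 23 HFD doublets (0.149% and 0.37%), too few to have worked, so doublets were kept and the top 5% of scores (301 and 311 cells) left out as an alternative.

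UMIs were summed per library and class and given per 1000000 (UPM). Intervals are exact 95% Poisson (levels), Clopper-Pearson (shares) and conditional binomial (ratios), computed with scipy 1.17.1 in Python 3.11.15. They cover counting error only, and are too narrow where 1 cell holds many UMIs. A count of 0 is given with the limit that 3 counts set. Log2 ratios had 0.5 added to each count and needed at least 20 UMIs over both libraries. "Beyond counting error" means an interval without 0. No p-value was computed, as each diet has 1 library. On simulated data, intervals of the genes changed by 2-fold covered the true ratio in 94.9% (mesenchymal-like) and 92.7% (endothelial-like) of genes. The simulated counts were Poisson, as the intervals assume. This checks the calculation only, and not the spread between cells or mice.

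Named genes were the 10 members, the 3 genes most like each, and up to 3 genes per list and direction with the most UMIs among those past 2-fold. The members, lists and markers were chosen with earlier results of these data known. Alternatives covered the normalization, low-count limit, pseudocount, thinning, doublets, the gene minimum, resolution, genes used for clustering and the mix of classes.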

Additional observations from a re-analysis of the deposited data

Results flagged for a closer look

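Members' UMIs were also present in barcodes that the filter on genes and mitochondrial UMIs left out, above the limit of 3 counts. In the ND library these were 12 UMIs of Vegfa, 9 of Flt1, 9 of Nrp1 and 17 of Nrp2. In the HFD library they were 13 of Vegfa, 19 of Flt1, 18 of Kdr, 21 of Nrp1 and 12 of Nrp2. These barcodes are in no comparison above.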

How the results depend on the processing

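No paired analysis was possible because the columns carry no replicate numbers and each diet has 1 library. The class with the highest level was the same for all 10 members under the 8 alternatives that changed the cells or classes, except thinning to 1000 UMIs per cell, where Vegfb was highest in dendritic-like and Vegfd in erythroid-like cells. With classes given the same weights, the ratios over all kept cells became -0.23 for Vegfc, which reversed, -0.57 for Vegfd, 0.099 for Pgf, 0.053 for Flt1, 0.10 for Kdr, 0.070 for Flt4, 0.12 for Nrp1 and 0.32 for Nrp2. With thinning they became 1.26 for Pgf, 1.15 for Flt1, -0.26 for Flt4, which reversed, 0.84 for Nrp1 and 0.87 for Nrp2, and in endothelial-like cells -1.43 for Vegfc, 0.43 for Flt1, -0.10 for Kdr, -1.20 for Flt4 and 0.59 for Nrp1. The mean over cells gave 0.76 for Nrp1 over all kept cells, and subclusters with the same weights -0.17 for Kdr in endothelial-like cells. The count of endothelial-like members past 2-fold higher, 2 as reported, was 0 with at least 100 UMIs, a pseudocount of 1, more than 200 genes, thinning or subclusters of the same weights, and 1 with the mean over cells, the top 5% of doublet scores left out, the members kept in the clustering or immediate-early genes left out of it. The count lower, 0 as reported, was 1 with at least 1 UMI and 2 with thinning. In mesenchymal-like cells the count higher was 1 with the mean over cells and 2 with at least 1 UMI, and over all kept cells 1 with the mean over cells, 2 with thinning and 2 without the top doublet scores, against 0 as reported in both. The other 340 ratios of members in these cells moved by less than their counting interval. Counts over all genes moved by more than 1.5 times too. Over all kept cells, 622 higher and 209 lower as reported ranged from 243 to 2546 and from 45 to 1933, in endothelial-like cells 248 and 224 from 15 to 1502 and from 28 to 1545, and in mesenchymal-like cells 326 and 259 from 56 to 2578 and from 64 to 1830. The highest of these came with at least 1 UMI. Other causes were not tested. Leaving out the top doublet scores, and the mesenchymal-like subcluster with neutrophil genes, was chosen after seeing the data. Depth limits Vegfd and Flt4, with 159 and 128 UMIs in all, and the members in pericyte or smooth muscle-like cells.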
